A study of Homo sapiens with 12 samples.

Results

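The genes described here encode Polycomb repressive complex 2 (PRC2) and the enzymes that reverse its mark. The 10 genes were listed by name: the methyltransferases EZH1 and EZH2, the other core subunits EED, SUZ12, RBBP4 and RBBP7, the accessory subunits JARID2 and AEBP2, and the demethylases KDM6A and KDM6B. They are 10 of the 15842 protein-coding genes that had an annotated start in the RefSeq table used. A site was counted for a gene when its summit, the base with the most fragments, lay inside the gene or within 10 kb of it. This gave 58 of the 188019 summits in the deposited list, in 48 of its 91278 intervals. Open chromatin was profiled by ATAC-seq, where a transposase inserts adapters into accessible DNA, in HT1080, an established human fibrosarcoma line. The cells had migrated for 48 h in rat tail collagen I at 0.3 mg/mL (low), 1 mg/mL (medium) or 1.7 mg/mL (high), with 4 libraries per concentration. All 3 groups received 20 µM GM6001, a broad inhibitor of matrix metalloproteinases, so there was no group without it. The labels do not say whether the libraries of a concentration came from separate cultures, and a single cell line limits what the groups can stand for.

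The study compared chromatin between the 3 collagen concentrations, but the list analysed here is pooled: no column and no line name carries a library or a concentration. No value below is a comparison between concentrations, none has a replicate, and the depth per library is unknown. Enrichment is the authors' value, the ratio of fragments at a summit to the local background. Pileup, the number of overlapping fragments at a summit, and the local background were recovered from the authors' enrichment and p-value. The recovery cannot tell whole fragments from single reads, so the unit of fragments is assumed. The lowest background in the list, 20.3 fragments, recurred at 53% of summits and is called the genome-wide background. Intervals in brackets or introduced by "counting interval" are exact 95% Poisson or conditional binomial intervals of a pileup or of a ratio of pileups. They cover counting error only, since a pooled list has no replicate and the treatment of duplicates is not given. Sites open in more cells and sites more open in each cell cannot be told apart in pooled libraries.

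PRC2 places methyl groups on lysine 27 of histone H3, and the trimethylated form, H3K27me3, marks silenced genes and facultative heterochromatin. EZH2 or EZH1 carries out the reaction, but only when bound to EED and SUZ12, while RBBP4 or RBBP7 contacts histones. JARID2 and AEBP2 help to direct the complex to chromatin and to tune its activity. KDM6A and KDM6B remove the methyl groups, so that both directions of this mark are encoded by the genes described here.

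For 7 of the 10 genes a summit fell in the 250 bases just before an annotated start, and those 7 stretches are printed to show the DNA at the open site. They are RefSeq sequences of GRCh38.p14, given 5′ to 3′ on the gene's own strand. Capitals mark matches, on either strand, to CCAAT (bound by NFY), CCGGAAG (the core of ETS sites), the E2F variants TTGGCGC and also TTCGCGC (bound by E2F factors), GCATGCG (in NRF1 sites), AAGATGG (YY1), TATAAA (the TATA box) and TGANTCA (AP-1). The match to GGGCGG (the GC box of SP1 and KLF factors) was counted but left in lower case because it is so frequent. Positions are counted back from the start, the base before it being -1.
EZH2, chr7:148884292-148884541, minus strand: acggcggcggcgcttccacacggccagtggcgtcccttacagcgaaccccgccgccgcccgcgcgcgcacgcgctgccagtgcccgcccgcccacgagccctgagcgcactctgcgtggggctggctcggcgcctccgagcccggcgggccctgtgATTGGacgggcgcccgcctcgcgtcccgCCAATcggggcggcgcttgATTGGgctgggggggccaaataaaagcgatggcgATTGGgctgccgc
SUZ12, chr17:31936757-31937006, plus strand: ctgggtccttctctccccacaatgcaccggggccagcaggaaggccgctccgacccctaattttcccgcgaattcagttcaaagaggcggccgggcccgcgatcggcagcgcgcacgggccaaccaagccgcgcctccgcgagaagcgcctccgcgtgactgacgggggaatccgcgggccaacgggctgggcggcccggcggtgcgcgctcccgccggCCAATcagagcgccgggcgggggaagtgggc
RBBP4, chr1:32650958-32651207, plus strand: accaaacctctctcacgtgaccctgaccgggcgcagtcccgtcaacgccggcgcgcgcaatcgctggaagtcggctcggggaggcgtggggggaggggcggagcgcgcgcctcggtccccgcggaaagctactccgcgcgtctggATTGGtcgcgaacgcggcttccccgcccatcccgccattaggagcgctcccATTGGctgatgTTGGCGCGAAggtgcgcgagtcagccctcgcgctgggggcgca
RBBP7, chrX:16870363-16870612, minus strand: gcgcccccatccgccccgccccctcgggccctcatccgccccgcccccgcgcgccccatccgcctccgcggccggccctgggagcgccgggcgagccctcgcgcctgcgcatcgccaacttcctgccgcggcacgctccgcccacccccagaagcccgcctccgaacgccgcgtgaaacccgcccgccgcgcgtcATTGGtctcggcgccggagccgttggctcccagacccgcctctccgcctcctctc
JARID2, the second of its starts, chr6:15248605-15248854, plus strand: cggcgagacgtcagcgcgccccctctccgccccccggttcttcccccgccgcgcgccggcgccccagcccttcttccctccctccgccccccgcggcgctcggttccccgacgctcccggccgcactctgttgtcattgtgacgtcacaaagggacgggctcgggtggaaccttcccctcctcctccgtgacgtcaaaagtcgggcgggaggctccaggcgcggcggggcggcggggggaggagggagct
KDM6A, chrX:44872938-44873187, plus strand: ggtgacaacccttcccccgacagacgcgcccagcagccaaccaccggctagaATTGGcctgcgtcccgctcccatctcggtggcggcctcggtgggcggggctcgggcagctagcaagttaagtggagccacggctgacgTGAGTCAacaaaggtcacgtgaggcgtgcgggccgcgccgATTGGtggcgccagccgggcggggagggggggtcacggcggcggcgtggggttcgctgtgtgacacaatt
KDM6B, chr17:7833967-7834216, plus strand: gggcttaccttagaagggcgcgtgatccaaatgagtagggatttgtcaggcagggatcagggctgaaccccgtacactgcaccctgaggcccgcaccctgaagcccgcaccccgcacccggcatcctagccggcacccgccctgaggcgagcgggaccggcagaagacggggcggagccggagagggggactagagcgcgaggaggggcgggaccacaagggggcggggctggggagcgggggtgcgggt

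The summit fell on base 81 of the printed EZH2 stretch, base 206 for SUZ12, base 137 for RBBP4, base 158 for RBBP7, base 126 for JARID2, base 69 for KDM6A and base 43 for KDM6B. The EZH2 stretch held 4 CCAAT matches, 3 of them on the opposite strand, between -94 and -9, and an E2F match began at base 3 of the transcript. Windows of 300 bases, with 50 bases after the start, were searched at all coding starts, and 1.13% of 22198 held 4 or more CCAAT matches. At least 1 CCAAT match was present for 7 of the 10 genes (EZH2, EED, SUZ12, RBBP4, RBBP7, JARID2 and KDM6A), and in 9 of their 15 windows, against 34.7% of all windows. In RBBP4 overlapping E2F matches on the 2 strands lay between -43 and -34, the capitals next to its proximal CCAAT match. E2F matches were present in 4 of the 15 windows, against 6.4% of all. The windows of the 2 RBBP4 starts overlap, so the same E2F pair, CCAAT match and a GC box are counted in both. The KDM6A window held the single AP-1 match of the set, at -110 to -104 (6.15% of all windows). The KDM6B window printed above had GC boxes only, as did that of JARID2. GC boxes were present in 13 of 15 windows, against 56.3%. Base composition ranged from 52.3% to 79.3% G and C (all windows, median 62.3%), with 2 to 54 CG dinucleotides (median 21). The lowest CG count belonged to the second start of KDM6B, which had no summit within 1 kb. A match is a stretch of letters and does not show that the factor was bound.

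Of the methyltransferase genes, EZH2 had the higher pileup at its start and EZH1 about the same enrichment. EZH2, on chromosome 7 from 148807383 to 148884291, is the form that predominates in dividing cells and a known target of E2F factors. Its summit lay 170 bp before the start in an interval of 942 bp, with a pileup of 1598 (1521 to 1678) and an enrichment of 15.6. EZH1, on chromosome 17 from 42700275 to 42745040, is the paralogue that also serves non-dividing cells. Its summit lay 71 bp after the start, with a pileup of 1333 (1262 to 1407) and an enrichment of 15.9. The ratio of the pileups was 1.20 (counting interval 1.11 to 1.29), which is beyond counting error, but the ratio of enrichments was 0.981 because the local background was 102 fragments at EZH2 and 83.1 at EZH1. Elsewhere both genes had weak sites only. EZH2 had 4 summits inside the gene, 27.3 to 76.1 kb from its first start, with pileups of 45 to 59 and enrichments of 1.97 to 2.81. EZH1 had none inside the gene beyond its start, and 2 in the flanks with pileups of 62 and 68.

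The other core subunits spanned the whole range of PRC2 start sites by pileup, though not by enrichment, where JARID2 was lowest. SUZ12, the scaffold that holds the complex together, lies on chromosome 17 from 31937007 to 32001038. It had the highest enrichment of the 10 genes at a start, 17.4, at a summit 45 bp before the start, with a pileup of 1808 (1726 to 1893). EED, on chromosome 11 from 86244753 to 86287615, encodes the subunit that binds H3K27me3 and stimulates the enzyme. Its pileup was 758 (705 to 814) and its enrichment 11.0, and its summit lay 371 bp after the start. The SUZ12 pileup was 2.39 times that of EED (counting interval 2.19 to 2.60), both proteins being obligate parts of the complex. Neither gene had a summit inside it away from the start: EED had 1 site 4446 bp beyond its end (pileup 148), and SUZ12 had 1 site 6364 bp beyond its end (pileup 653, enrichment 13.3). The latter lay within 1 kb of the starts of LRRC37B and LOC124903972, so it may belong to those genes as well as to SUZ12.

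SUZ12 has a partial copy on the same chromosome, the transcribed pseudogene SUZ12P1 (30709608 to 30792830). Its strongest summit, at 30731586, had a pileup of 1589 and an enrichment of 16.9, close to those at SUZ12 itself. The ratio of the SUZ12 start to this summit was 1.14 (counting interval 1.06 to 1.22). SUZ12P1 had no listed start, so whether the summit lies in sequence copied from the SUZ12 start was not determined. How reads that match both copies were placed is not given in the sources used here, so both values are uncertain, and whether reads moved between the copies was not tested.

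RBBP4 and RBBP7 encode closely related histone-binding proteins that also serve in other chromatin complexes, such as NuRD. RBBP4, on chromosome 1 from 32651208 to 32686211, had the highest start-site pileup of the 10 genes, 2511 (2414 to 2611), at a summit 114 bp before its first start, with an enrichment of 15.8. A lesser summit of the same interval, 475 bp before the start, had a pileup of 1022 and lay inside ZBTB8OS. The listed starts of ZBTB8OS are at 32650932 and 32650550, on the other strand. RBBP4 was the only one of the 9 genes with a start-site summit to share it, within 1 kb, with the start of another coding gene, and the pileup cannot be divided between the pair. RBBP7, on chromosome X from 16844341 to 16870362, had a pileup of 981 (921 to 1044) and an enrichment of 13.4 at a summit 93 bp before its first start. The ratio of RBBP4 to RBBP7 was 2.56 in pileup (counting interval 2.38 to 2.76) but 1.18 in enrichment. A weaker summit of 141 fragments lay 19 bp from the second start of RBBP7. RBBP7 also had a summit inside the gene, 14.1 kb from the first start, with a pileup of 192 over the genome-wide background (enrichment 9.05). Another of 201 fragments (enrichment 7.56) lay 5941 bp beyond the gene, inside TXLNG. RBBP4 had no summit in its body, and its 3 flanking summits, all inside SYNC, had pileups of 45 to 59.

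**Figure D1:**
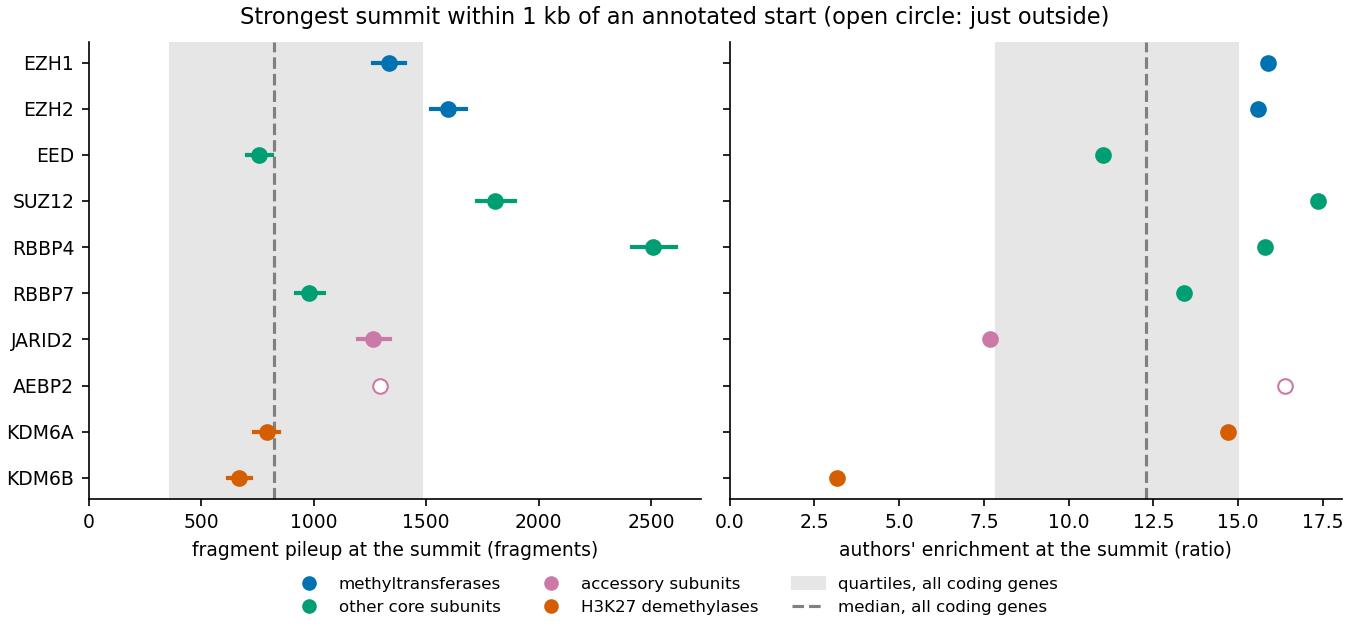
Pileup in fragments (left) and the authors' enrichment as a ratio (right) at the strongest summit within 1 kb of an annotated start of each gene. Horizontal bars are exact 95% Poisson intervals, the grey band and dashed line are the quartiles and median of 10717 coding genes, and the open circle is the AEBP2 summit, just over 1 kb from its listed start. RBBP4 is highest in pileup and SUZ12 in enrichment, and KDM6B is lowest in both.

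The 2 accessory subunit genes differed from each other in the layout of their sites. JARID2, a member of the Jumonji family without demethylase activity, spans 275974 bp on chromosome 6 (15246069 to 15522042) and had 19 summits, the most of the 10 genes, but per 10 kb this was 0.642, at percentile 53.7 of coding genes. Its 2 annotated starts were open to a like degree, with pileups of 1266 (enrichment 7.67, 312 bp before the first start) and 1230 (enrichment 7.42, 125 bp before the second start). Their ratio was 1.03 (counting interval 0.951 to 1.11), so counting error alone covers the difference. The start of JARID2-DT lay within 1 kb of the former summit and that of JARID2-AS1 within 1 kb of the latter. Both starts had a raised background of 164 and 165 fragments. The other 17 summits all lay inside the gene, 13 of them in its distal part, more than 138 kb from the first start.

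A pair of inner JARID2 summits stood out from the rest. The site 172.0 kb from the first start had a pileup of 751 and an enrichment of 14.8, and the site at 83.3 kb had 487 and 12.8. The remaining 15 had pileups of 44 to 171 and enrichments of 1.62 to 5.95. By enrichment both sites exceeded the 2 starts, whereas by pileup the first start was 1.69 times the stronger of them (counting interval 1.54 to 1.85). The local background at these sites was 2.46 and 1.83 times the genome-wide background, against 8.08 times at the first start. Exon and intron boundaries were not used here, so whether a site is intronic was not determined.

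AEBP2, a zinc finger subunit, spans 118156 bp on chromosome 12 (19404072 to 19522227) and was the only one of the 10 genes without a summit within 1 kb of its listed start. Its strong summit lay 1063 bp before that start, just outside the limit, with a pileup of 1297 and an enrichment of 16.4. The farthest strongest summit inside the limit was that of EED, at 371 bp. The interval around the AEBP2 summit, 19439309 to 19440563, ended just before the start at 19440599. The 5′ end of the gene in the gene table lies farther upstream, at 19404072, where a summit 985 bp away had a pileup of only 46. The other summits of the gene had 38 fragments, in the same interval, and 87 fragments, 8659 bp before the listed start.

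The 2 demethylase genes had opposite layouts. KDM6A encodes a demethylase on chromosome X (44873188 to 45112779) that also works in enhancer-binding methyltransferase complexes. Its start had a pileup of 791 (737 to 848) and an enrichment of 14.7, at a summit 182 bp upstream. Only 2 further summits lay in its 239592 bp, at 133.0 and 167.7 kb, with pileups of 119 and 79 over the genome-wide background. Per 10 kb of gene and flanks this was 0.116 summits, at percentile 12.7 of the coding genes. KDM6B, the stress- and cytokine-inducible demethylase, spans 20580 bp on chromosome 17 (7834217 to 7854796) and had 9 summits, 2.22 per 10 kb, at percentile 97.0.

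The start was not the strongest site of KDM6B. Its summit 208 bp before the first start had a pileup of 669 (619 to 722) and an enrichment of 3.16, the lowest of the 9 genes on both measures. The strongest summit inside the gene lay 1444 bp after that start, with a pileup of 1785 and an enrichment of 8.28, or 2.67 times the fragments of the start itself (counting interval 2.44 to 2.92). Inside the gene there followed summits of 888 fragments at 2.68 kb, 1734 at 7.64 kb, 1246 at 8.59 kb, 377 at 9.71 kb, 956 at 10.7 kb and 514 at 17.7 kb. The highest pileup, 2273 (enrichment 10.9), lay 2699 bp beyond the gene within 1 kb of the start of NAA38, so it may be that gene's site. LOC124904106 overlaps most of the inner sites, with a start within 1 kb of the summit at 10.7 kb.

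A high local background accompanied these KDM6B values. It was 207 to 314 fragments at 8 of the 9 summits, up to 15.5 times the genome-wide background, and 3.54 times the genome-wide background at the other, at 17.7 kb. The strongest start sites of the other 8 genes with one had backgrounds of 52.9 to 164 fragments. At the first start KDM6A had 4.66 times the enrichment of KDM6B but only 1.18 times its pileup (counting interval 1.07 to 1.31). What raised the background there was not tested.

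**Figure D2:**
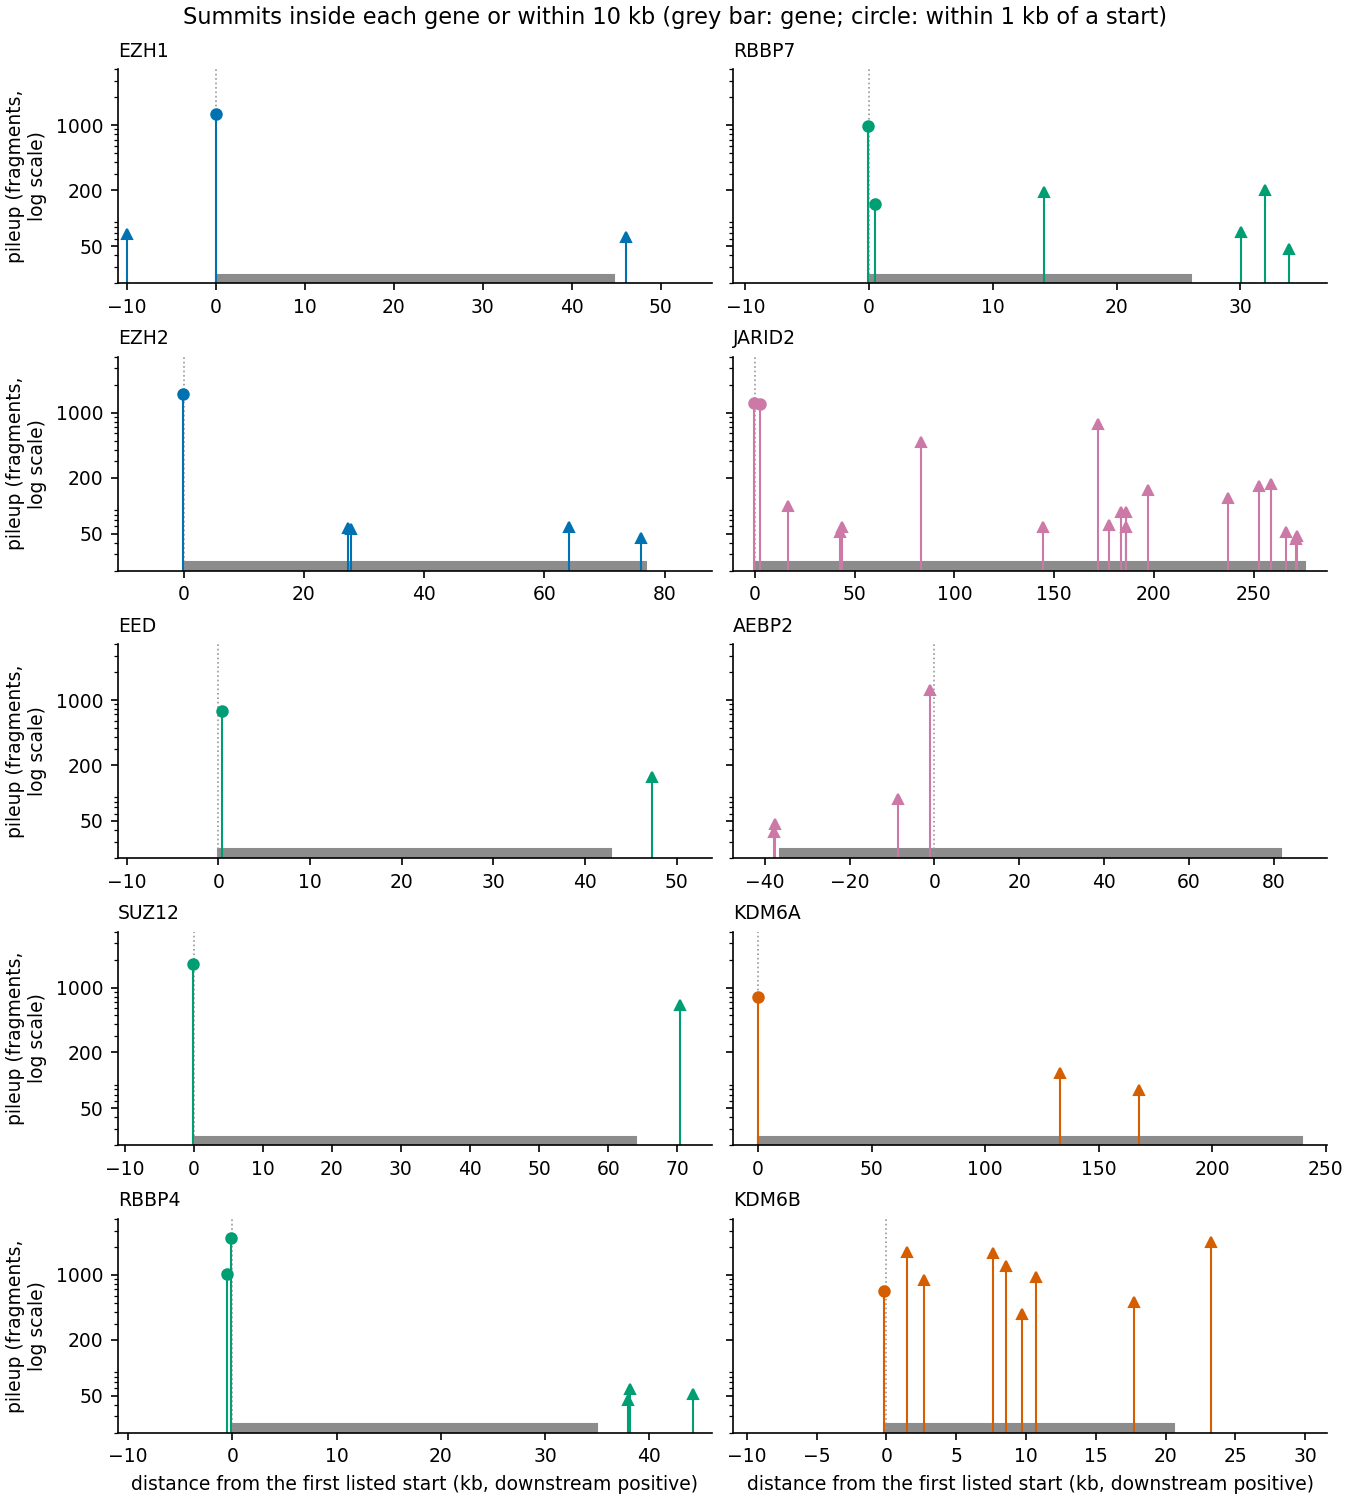
Pileup in fragments (log axis) of every summit inside each gene or within 10 kb, against the distance from its first listed start in kb. Circles are summits within 1 kb of an annotated start, triangles are others, the grey bar is the gene and each panel has its own distance scale. Most genes have 1 tall site at the start and low sites elsewhere, JARID2 has 2 tall starts and 2 tall inner sites, and KDM6B has tall sites throughout.

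Set beside all coding genes, the start sites were strong for some of these genes and ordinary for others. A summit within 10 kb was present for 10 of 10 genes, where 90.3% of the 15842 coding genes have one. A summit within 1 kb of a start was present for 9 of 10, where 67.6% of coding genes have one. The enrichment of the strongest such summit was at least 10 for 7 of the 9 genes, against 64.8% of the 10717 coding genes with one. The shares with a site within 10 kb and with an enrichment of at least 10 lay near those of all coding genes and say nothing particular of these 10. The highest enrichment lay away from the starts in 2 of the 9 (JARID2 and KDM6B), against 33.8%. The median start-site pileup of the 9 genes was 1266, against 822 over all coding genes with one (quartiles 363 and 1480), and the median enrichment was 14.7 against 12.3 (quartiles 7.86 and 15.0).

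In order of start-site pileup the genes ran RBBP4, SUZ12, EZH2, EZH1, JARID2, RBBP7, KDM6A, EED and KDM6B. Neighbours in this order differed beyond counting error except EZH1 and JARID2 (ratio 1.05, counting interval 0.974 to 1.14) and KDM6A and EED (ratio 1.04, counting interval 0.943 to 1.15). Spread between libraries could be larger and is not in these intervals. The 1 kb limit decides the place of KDM6B: within 2.5 kb of a start, a window tried after seeing the data, its pileup was 1785, at rank 3 of 10, and EED was lowest. Percentiles here are among the 10717 coding genes with a start-site summit. RBBP4 was at percentile 92.2 in pileup, SUZ12 at 82.1 and EZH2 at 77.9, while KDM6A (48.4), EED (46.7) and KDM6B (41.9) were near the middle of those genes. By enrichment the order began with SUZ12 (percentile 94.3) and EZH1 (83.3), and JARID2 (24.3) and KDM6B (9.07) came last. RBBP7 and KDM6A lie on chromosome X, where the median start-site pileup was 487 over 367 genes, against 836 on the autosomes. Both were above the median of their own chromosome, and the median enrichment on X, 13.1, was not below the 12.3 of the autosomes.

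**Figure D3:**
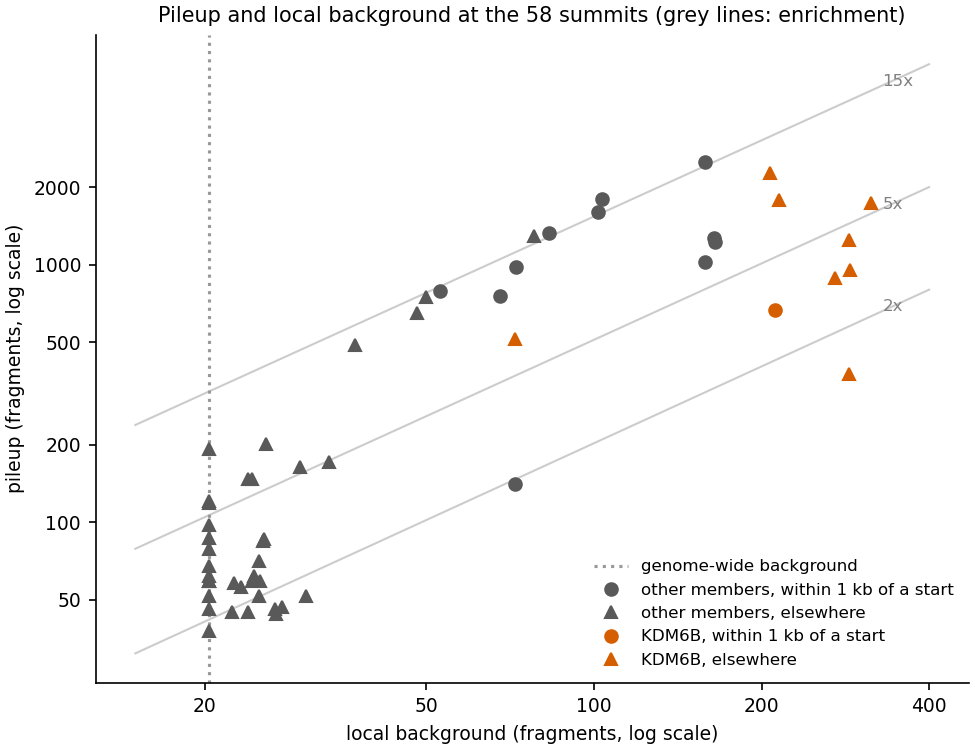
Pileup against local background, both in fragments on log axes, for the 58 summits of the 10 genes, with grey lines of equal enrichment. Circles lie within 1 kb of an annotated start and triangles elsewhere, and orange marks KDM6B. Of the KDM6B points 8 lie at backgrounds over 200 fragments, to the right of every summit of the other genes.

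Away from the starts the genes other than KDM6B had few strong sites. Of the 46 summits more than 1 kb from every start, 33 lay inside one of the genes and 13 in the flanks, and 30 of the 46 remained at a −log10 q of at least 10. Their median pileup was 85.5 and their median enrichment 3.26. Both were below the medians of the whole list, 101 and 4.27, but that list also holds start-site summits. Without KDM6B, 38 summits remained with a median pileup of 65, and 4 of these exceeded 250 fragments: the AEBP2 summit before its start, the LRRC37B start beside SUZ12 and the 2 inner JARID2 sites. The 8 KDM6B summits ranged from 377 to 2273. A start of another coding gene lay within 1 kb of 3 of the 46 summits, those at LRRC37B, LOC124904106 and NAA38. Shares over all summits away from starts are not given here, so whether these counts out of 46 are ordinary was not determined.

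Other genes of the pathway were mostly open at their starts as well. Of 30 listed Polycomb and H3K27 genes with an annotated start, 28 had a summit within 1 kb of it (93.3%, against 67.6% of coding genes). Their median pileup was 983, against 822 over all coding genes with one. Their median enrichment was 11.6, below the 12.3 of those coding genes. Listed genes without an entry in the start table included EPOP, CBX2, CBX8, BAP1, PAXIP1 and NCOA6. Among further PRC2 accessory genes 4 of 5 had a start-site summit, led by PHF1, a Tudor-domain subunit, with 1449 fragments. EZHIP, a germline inhibitor of PRC2, had no summit within 10 kb. Genes of Polycomb repressive complex 1 (PRC1), which ubiquitinates histone H2A and in some forms reads H3K27me3, had one in 15 of 16 cases. Their median pileup, 620, was below that of the 8 PRC2 genes, 1333 over the 7 with a start-site summit. It was also below the 822 of all coding genes with such a summit. PCGF3 was highest with 2049, and PCGF2 had none within 1 kb of its start but 5 within 10 kb.

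Other chromatin regulators on the lists had a wide range of values. Among the ASXL genes, which encode cofactors of an H2A deubiquitinase, ASXL2 had 2274 fragments and ASXL3, named after its value was seen, 42. The highest summit inside ASXL3 or within 10 kb had 483 fragments (enrichment 16.6). Of the KDM6A partners, PAGR1 was highest with 1761. EP300, which acetylates the lysine that PRC2 methylates, had 2327, and its relative CREBBP, named after its value was seen, had 991. UTY, the copy of KDM6A on chromosome Y, had 204 fragments over the genome-wide background (enrichment 9.62), so KDM6A had 3.88 times as many (counting interval 3.32 to 4.55). In a comparison list of H3K9 methyltransferases, 5 of 6 had a start-site summit, where 67.6% of coding genes have one. Their median pileup was 1134, with SETDB2 highest at 3199. EHMT2 had none within 1 kb of its start but 1 inside the gene or within 10 kb, with 384 fragments (enrichment 12.5).

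**Figure D4:**
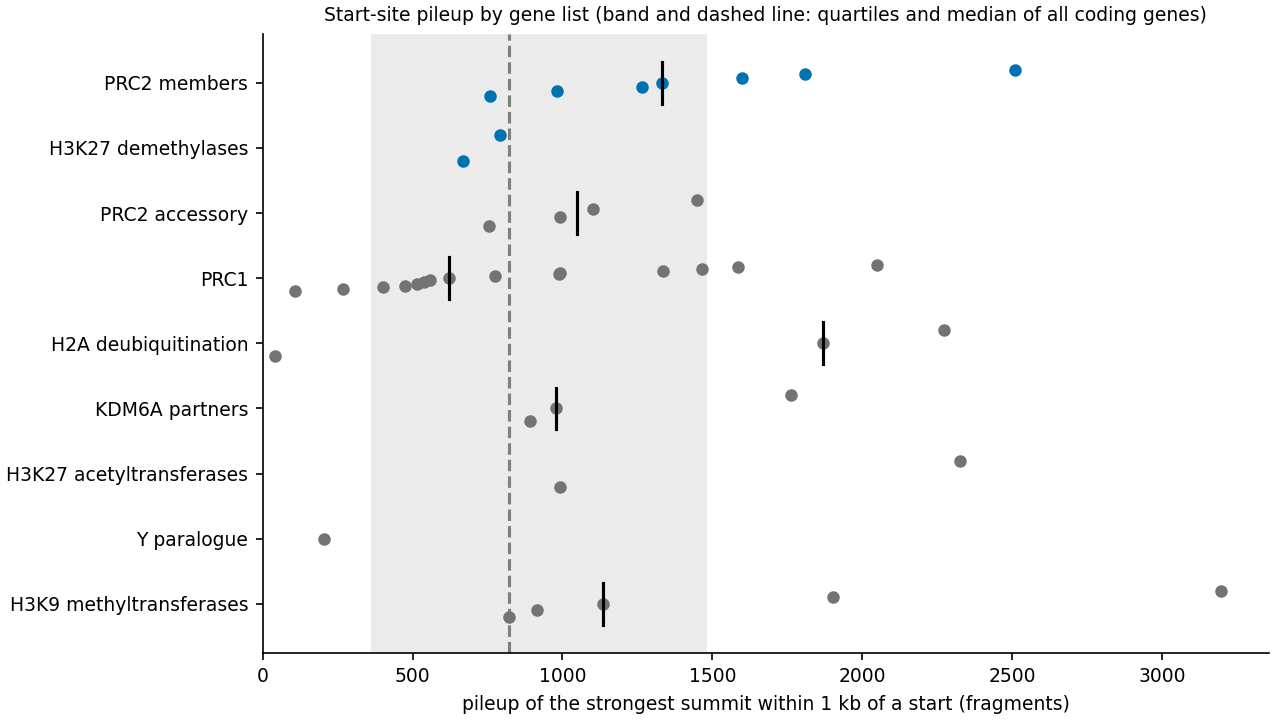
Pileup in fragments at the strongest summit within 1 kb of a start, for each gene of each list. Points are genes and black bars are medians of lists with more than 2 genes. The band and dashed line are the quartiles and median of all coding genes with a start-site summit. The PRC2 genes centre on 1333 and the PRC1 genes on 620.

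The labelled cell type was checked against markers. All 6 mesenchymal markers with a listed start (VIM, FN1, CDH2, SPARC, S100A4 and COL5A1) had a start-site summit, where 67.6% of coding genes have one, with a median pileup of 923.5. None of 5 epithelial, blood and liver markers with a listed start had one (KRT8, CLDN4, PTPRC, CD14 and ALB), but the highest pileup within 10 kb was 795 for KRT8, 2640 for CLDN4, 215 for PTPRC and 1238 for CD14, and ALB had no summit there. Markers without an entry included THY1, TWIST1, CDH1, EPCAM, CD3E, HBB and APOB.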

How the data were processed

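ATAC-seq was made from 12 libraries, 4 per collagen concentration. Per the submitters' processing notes the tools were fastp 0.20.0, Bowtie2 2.4.3, deepTools 3.5.0, SAMtools and MACS2 2.2.7.1, with the build hg38; filters, treatment of duplicates and any control are not given in the sources used here. The authors deposited 1 peak list of 10 columns for the whole series. Its enrichment is the authors' ratio of a summit to its local background, and its p-value and q-value columns were deposited on the −log10 scale, with a lowest −log10 q of 1.3. The deposited score was 10 times the −log10 q, truncated, in 99.76% of lines, and was not used further.

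Pileup and background were solved from the enrichment, taken as (pileup + 1)/(background + 1), and from p as the Poisson probability of a larger pileup at that background. No label states this model. It gave a whole pileup, within 0.05, in 99.96% of lines, and the solver was tested on made-up input. The genome-wide background was matched within 0.2%. Starts and promoter sequences came from RefSeq GRCh38.p14, where 15842 of 20037 coding genes had a start on the autosomes, X or Y. All 10 genes matched by symbol. The planned comparison between concentrations, with or without a replicate block, had no input. Text names all 10 genes, the pathway genes without a start-site summit and the highest gene of each list. The genes and lists were chosen with earlier results of these data known. Alternatives covered windows, interval counting and a stricter q. Python 3.11.15, numpy 2.4.6, pandas 2.3.3, scipy 1.17.1, numba 0.67.0 and matplotlib 3.10.9 were used. Some listed genes are not reported here.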

Additional observations from a re-analysis of the deposited data

How the results depend on the processing

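No paired analysis was possible because the pooled list carries no value per library, and for the same reason no replicate could be left out. The 58 summits of the 10 genes became 53 with a window of 5 kb, 73 with 25 kb, 48 with each interval counted once, 42 at a −log10 q of at least 10 and 58 when any overlap of the interval counted. Genes with a summit at a start numbered 9 with windows of 1 kb or 500 bp and at the stricter q, and 10 with 2.5 kb, with interval overlap or when the 5′ end of the gene table was added, the last chosen after seeing the data; AEBP2 made the difference. Summits away from the starts fell from 46 to 38 with each interval counted once and to 30 at a −log10 q of at least 10, a drop of more than 1.5 times. Pathway and H3K9 methyltransferase genes together with a start-site summit numbered 31 to 33 of 36 under all alternatives run. Ranking by enrichment in place of pileup moved JARID2 from rank 5 to 8 and EZH1 from rank 4 to 2 of 9, and KDM6B was at rank 9 under both. Within 2.5 kb of a start, a window chosen for this ranking after seeing the data, KDM6B rose to rank 3 of 10 by pileup (1785 fragments) and EED was at rank 10. The depth per library is unknown, so weak sites such as those of 38 to 59 fragments cannot be assigned to a concentration.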

Other observations

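The gene table lists 10 pseudogenes named after EED, SUZ12 or RBBP4, and 2 of them had a summit inside or within 1 kb, where 13.9% of 17051 pseudogenes have one. Besides SUZ12P1, which held 5 summits inside its 83223 bp and had the pileup of 1589 given above, this was RBBP4P1 on chromosome 5 (14796181 to 14798497), with a pileup of 88 and an enrichment of 3.99 at 14797501. The other 6 copies of RBBP4, EEDP1 and SUZ12P2 had 0 summits.

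Among the PRC1 genes the E3 ligase genes RING1 and RNF2, named here after their values were seen, had low start-site pileups of 106 and 268. These were at percentiles 10.1 and 19.9 of the coding genes with a start-site summit. The highest summit within 10 kb of RING1 had 347 fragments.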
